A study of Mus musculus with 33 samples.

Results

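Splenic CD45+CD4- cells, the leukocytes that remain after CD4+ cells have been taken out of the spleen, were compared between transplant-tolerant and naive mice. Of the 33 bulk RNA-Seq libraries of the series, 6 held these cells, 3 titled SP/Tolerant-CD45+CD4- and 3 titled SP/NaiveCD45+CD4-, and all genes of these libraries were compared. Both groups were C57BL/6 DEREG mice, whose transgene drives a diphtheria toxin receptor fused to eGFP from Foxp3 regulatory sequence, so that it is expressed in Tregs. Mice of the tolerant group had received 4000 IEQ (islet equivalents) of porcine NICC, neonatal islet cell clusters, under the renal capsule. They had been treated with MR-1, an antibody against CD154, and with CTLA4-Fc, a fusion protein that binds CD80 and CD86, at 500 µg per mouse and dose in the first week. Their spleens were taken at day 100. Naive mice had received neither graft nor treatment, so that effects of the graft, of either agent and of the time since treatment cannot be told apart. The cells were depleted of CD4+ cells with magnetic beads and then sorted as live CD45+ cells, without a marker of any lineage. Each library is described as a pool of 3 to 4 male mice, but only 3 naive mice were used for all spleen samples, so the 3 naive libraries cannot be separate pools of that size. The 10 tolerant mice came from 2 transplant experiments, and how they were divided over the libraries is not given in the sources used here. P-values therefore measure a spread between libraries, which may be technical in the naive group. In the fit of all 33 libraries that spread was estimated over all 11 groups, not from the 6 compared libraries alone.

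A spleen without its CD4+ cells is mostly B cells, with CD8 T cells, NK cells, a few gamma delta T cells and several myeloid cells beside them. B cells read antigen through an immunoglobulin receptor whose signalling chains are CD79A and CD79B, while CD8 T cells read peptides on MHC class I through a T cell receptor and the CD3 chains. NK cells kill with granzymes and perforin and carry Ly49 and NKG2 receptors. Activated T cells display CD154, encoded by Cd40lg, to CD40 on B cells and dendritic cells, and receive costimulation when CD28 binds CD80 or CD86. These are the signals that MR-1 and CTLA4-Fc block. In a bulk library, fewer cells of a type and less RNA per cell cannot be told apart.

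The 6 libraries held between 2550698 and 3323696 counts on genes, and between 15279 and 17017 genes were detected in each. Levels are given as CPM, counts scaled to library size with TMM factors and expressed per 1e+06, and 1 count was worth about 0.3 CPM. Naive libraries were less alike among themselves than tolerant libraries were. The mean correlation with the other libraries of the same group, over log2(CPM + 1) of the genes tested, was 0.902 to 0.908 for naive libraries and 0.929 to 0.935 for tolerant ones, and across the groups it was 0.910 to 0.921. Naive replicate 2 had 33.9 CPM of Cd79a, against 378 and 629 in the other naive libraries. Malat1, a nuclear RNA, took 0.905% of the counts of naive replicate 2, 2.20% to 3.13% in the other naive libraries and 0.770% to 1.30% in the tolerant ones.

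Defining markers of the expected lineages were present in every library. Since a long transcript collects more reads, levels of different genes were compared as CPM per kilobase of exon. Cd79b, a signalling chain of the B cell receptor, was at 509 CPM per kb in naive and 739 in tolerant libraries, and Trbc2, a constant region of the T cell receptor's beta chain, at 781 and 427. The constant kappa chain Igkc stood at 7171 and 11569 CPM per kb. Cd8b1 and Cd8a, the chains of the CD8 coreceptor, were at 181 and 70.7 CPM per kb in naive and 82.4 and 38.4 in tolerant libraries. Nkg7, a granule gene of NK and cytotoxic T cells, was at 454 and 434 CPM per kb. Of the myeloid genes, Lyz2, which encodes lysozyme, was at 184 and 356, and Tyrobp, an adaptor of activating receptors that NK cells also use, at 326 and 430. The median of the 15 B cell genes was 103 CPM per kb in naive libraries, that of the 18 T cell genes 58.0, that of the 14 NK genes 29.9 and that of the 12 myeloid genes 16.3. Red pulp macrophages, which take up aged red cells, were hardly represented. Their complement genes C1qa, C1qb and C1qc had at most 7 counts in either group of 3 libraries and the haem oxygenase gene Hmox1 at most 4.

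Transcripts of CD4 T cells were low but not absent. Cd4 was 11.3, 33.6 and 26.7 CPM in the naive libraries and 13, 0 and 15.3 in the tolerant libraries, so that the groups overlapped. In the libraries of splenic CD4+Foxp3- T cells of the same series it was 220 to 426 CPM, and the group means of Cd4 in CD45+CD4- cells were 7.75% of that level in naive and 3.96% in tolerant mice. Its log2 fold change between the groups was -1.34 (SE 0.676) and it was not called (edgeR adjusted p = 1). The Treg factor Foxp3 had 24 counts in the naive and 5 in the tolerant group, and EGFP, which the transgene expresses in Tregs, had 3 and 14. Xist was at most 1.02 CPM and Ddx3y, on the Y chromosome, at least 201 CPM in all 6 libraries, so that the groups did not differ in sex.

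With all 33 libraries sharing 1 estimate of the spread, 9 of the 25347 genes tested were lower in tolerant mice (0.0355%) and 0 were higher. At an unadjusted p under 0.05, 613 genes were lower and 517 higher. The likelihood ratio test of edgeR gave 1 lower and 0 higher, and DESeq2 gave 30 lower and 9 higher. The genes lower in tolerant mice comprised the costimulatory genes Cd40lg, Cd28, Icos and Tnfrsf4, the transcription factors Maf and Ikzf2, the folate receptor family member Izumo1r, the T cell membrane protein Ms4a4b and the non-coding RNA Malat1. A fit of the 6 compared libraries alone called none of these 9, although some alternatives of that fit called up to 3 of them, among Cd28, Cd40lg, Maf, Izumo1r and Tnfrsf4. The 6-library fit gave the lowest of their adjusted p to Cd28, 0.0686, and 0.142 to Cd40lg, with log2 fold changes of -1.95 and -7.16 that were close to those of the fit of all libraries. Each of the 9 had a larger SE in the 6-library fit. It was 0.413 with all libraries and 0.417 with the 6 for Cd28, and 0.148 and 0.375 for Malat1.

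Cd40lg, which encodes CD154 (chrX:57212143-57224042, GRCm38), was 14.7, 21.2 and 19.6 CPM in the naive libraries and 0.276, 0 and 0 CPM in the tolerant ones. All naive libraries were thus far above all tolerant libraries, with 174 counts against 1 in the groups. The ratio of these counts, scaled to library size, was 188 (95% interval 33.3 to 7467, for counting error only). Its log2 fold change was -7.05 (SE 1.03, edgeR adjusted p = 7.06e-07), a fitted value that depends on the prior count. Tnfrsf4, which encodes the costimulatory receptor OX40 (chr4:156013843-156016612), was 24.4, 14.7 and 23.8 CPM in naive and 0, 9.62 and 0 in tolerant libraries. The groups did not overlap, and tolerant replicate 2 held all 35 counts of its group. The log2 fold change of -2.67 (SE 0.454, edgeR adjusted p = 7.89e-05) was called in all 6 fits that left out 1 library, but in only 3 of 9 alternative settings. It was -8.95 without tolerant replicate 2, where the group is at 0 and the value depends on the prior count, and -2.09 to -2.87 without any other library.

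From here on, genes are described as called or not called in the fit of all libraries unless another is named. Cd28, the receptor of CD80 and CD86 on T cells (chr1:60716800-60773359), was 173, 308 and 183 CPM in naive and 36.7, 57.4 and 84.5 in tolerant libraries. Every naive library was above every tolerant one. The log2 fold change was -1.89 (SE 0.413, edgeR adjusted p = 0.0198), and the call was lost without naive replicate 2 (edgeR adjusted p = 0.306), tolerant replicate 1 (0.739) or tolerant replicate 2 (0.135). Icos, the inducible costimulator encoded beside Cd28 (chr1:60977927-61000320), was 62.9, 47.0 and 111 CPM in naive and 36.7, 14.3 and 5.77 in tolerant libraries. Again the groups did not overlap, and the log2 fold change of -1.95 (SE 0.420, edgeR adjusted p = 0.0169) was no longer called without naive replicate 3 (0.174), tolerant replicate 2 (0.120) or tolerant replicate 3 (1). Izumo1r, which marks Tregs and anergic or follicular helper CD4 T cells (chr9:14885814-14903949), was 16.5, 68.8 and 11.9 CPM in naive and 11.9, 0.275 and 0 in tolerant libraries. Its groups met at 11.9 CPM, and the log2 fold change was -2.97 (SE 0.534, edgeR adjusted p = 0.000282). It was -1.80 and not called without naive replicate 2 (0.380), not called without tolerant replicate 3 (0.0757), and -7.41 without tolerant replicate 1.

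Ikzf2, the transcription factor Helios of Tregs and some other T and NK cells (chr1:69531214-69687245), was 153, 182 and 169 CPM in naive and 74.6, 92.1 and 42.4 in tolerant libraries. The naive values lay close together and above all tolerant values. A log2 fold change of -1.27 (SE 0.224, edgeR adjusted p = 0.000203) was called without any 1 of the 6 libraries, but in only 3 of 9 alternative settings. Maf, a transcription factor of helper T cells that macrophages also express (chr8:115682942-115707794), was 13.7, 126 and 46.0 CPM in naive and 3.59, 4.95 and 17 in tolerant libraries. The lowest naive library lay under the highest tolerant one, and the log2 fold change of -2.87 (SE 0.463, edgeR adjusted p = 1.86e-05) was -1.81 without naive replicate 2 (edgeR adjusted p = 0.0844). Ms4a4b, a membrane protein of T and NK cells (chr19:11443553-11467055), was 1454, 1113 and 3667 CPM in naive and 1184, 1313 and 513 in tolerant libraries, with overlap. Naive replicate 3 was far above the rest. The log2 fold change of -1.05 (SE 0.220, edgeR adjusted p = 0.0106) was -0.38 without that library and -0.74 without tolerant replicate 3, and was called in neither case (edgeR adjusted p = 1 in both). Malat1 (chr19:5795690-5802672) was 27661, 7525 and 22330 CPM in naive and 6967, 9646 and 11823 in tolerant libraries, also with overlap, and its log2 fold change of -1.02 (SE 0.148, edgeR adjusted p = 7.06e-07) was -0.65 without naive replicate 1. Malat1 too was called in only 3 of 9 alternative settings.

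**Figure D1:**
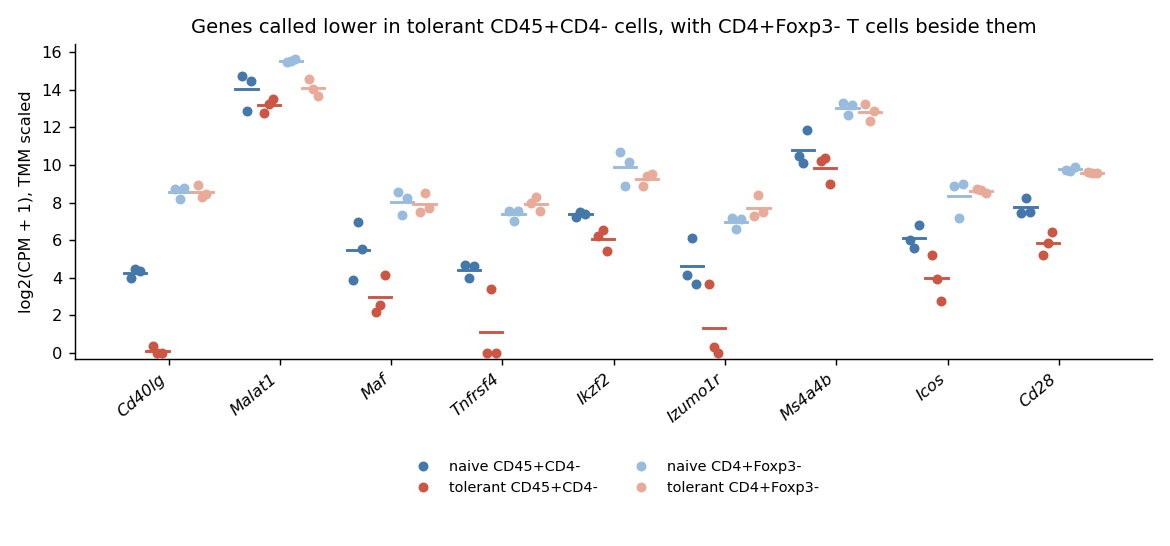
Levels of the 9 genes called lower in tolerant CD45+CD4- cells, as log2(CPM + 1) on the vertical axis, with 1 point per library and a line at the mean of each group of 3. The paler points are naive and tolerant CD4+Foxp3- T cells, whose levels of Cd40lg (297 to 482 CPM) lay far above the 14.7 to 21.2 CPM of naive CD45+CD4- cells.

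All 9 genes were higher in CD4+Foxp3- T cells than in CD45+CD4- cells. In the naive mice the mean of CD45+CD4- cells was 4.76% of that of CD4+Foxp3- T cells for Cd40lg, 12.3% for Tnfrsf4, 15.4% for Ikzf2, 19.6% for Icos, 22.2% for Maf and 25.2% for Cd28. For Cd4 itself that share was 7.75%. In the tolerant mice the share was 0.0241% for Cd40lg, 1.27% for Tnfrsf4, 4.75% for Icos and 7.67% for Cd28, against 3.96% for Cd4. Zbtb7b, the factor that sets the CD4 lineage, was 10.1, 16.3 and 5.15 CPM in naive and 14.1, 20.9 and 6.11 in tolerant libraries, with overlap and no call. Of the 7 genes of the CD4 T cell list, 4 fell (Cd40lg, Icos, Tnfrsf4 and Izumo1r), where 0.0355% of all genes tested fell. The list's summed level was 207, 244 and 305 CPM in naive and 115, 104 and 69.6 in tolerant libraries. The part of residual CD4+ cells in the 9 calls was not tested.

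With the spread estimated from the 6 compared libraries alone, 5 of 15973 genes were called, all higher in tolerant mice (0.0313%). Arl5c, which encodes a small GTPase of the ARF family (chr11:97989578-97996181), was 163, 285 and 314 CPM in naive and 1170, 1302 and 1045 in tolerant libraries. All tolerant libraries were more than 3-fold above the highest naive one, and CD4+Foxp3- T cells had 190 to 267 CPM in both groups of mice. The log2 fold change in this fit was 2.15 (SE 0.352, edgeR adjusted p = 0.00553), and it was called in 6 of 6 fits without 1 library. With all 33 libraries the change was 2.21 (SE 0.508) and just missed the threshold (edgeR adjusted p = 0.0507). Arl5c was called with DESeq2, RLE size factors, no filter on low counts, a replicate block or only spleen and graft libraries. It was not called with the likelihood ratio test, a stricter filter or ComBat-Seq.

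Clec9a, the receptor with which cross-presenting dendritic cells sense dead cells (chr6:129408862-129424763), was 0.306, 0 and 0 CPM in naive and 21.3, 28.3 and 38.7 in tolerant libraries. Naive libraries held 1 count in all and tolerant libraries 294, a scaled ratio of 272 (95% interval 48.5 to 10785, for counting error only). Its edgeR adjusted p was 0.0214 in the fit of 6 libraries, 0.278 in that fit without tolerant replicate 3 and 0.747 with all 33 libraries. Xcr1, the chemokine receptor of the same dendritic cells, was 0.917, 1.96 and 0.644 CPM in naive and 13.5, 16.2 and 17.6 in tolerant libraries, without overlap and without a call (log2 fold change 3.71, SE 2.08). The other 3 genes called in the 6 libraries were immunoglobulin genes. Ighg2c, the constant region of IgG2c (chr12:113285325-113288932), was 0.611, 7.50 and 3.86 CPM in naive and 8.29, 52.2 and 166 in tolerant libraries, so that the groups nearly touched (edgeR adjusted p = 0.0441, and 0.928 without tolerant replicate 3), and it was not called without naive replicate 1 either. The kappa variable segment Igkv4-59 was 2.75, 0 and 3.86 against 19.3, 9.89 and 224 CPM, and Igkv4-80 was 0, 0 and 2.58 against 7.18, 195 and 4.07 CPM. Each of these segments reached its high mean through 1 tolerant library (edgeR adjusted p = 0.0196 and 0.0214), and without tolerant replicate 3 for Igkv4-59 or replicate 2 for Igkv4-80 neither was called (0.928 and 0.976).

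**Figure D2:**
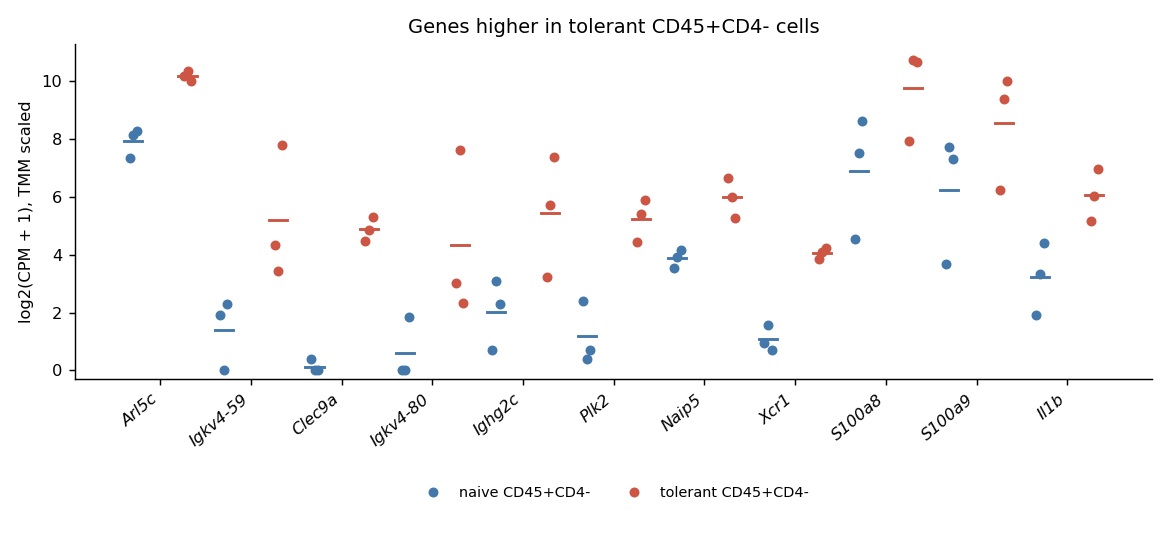
Levels of the 5 genes called higher in the fit of the 6 compared libraries (Arl5c, Igkv4-59, Clec9a, Igkv4-80 and Ighg2c) and of 6 more that were not called, as log2(CPM + 1), with 1 point per library and a line at each group mean. Arl5c shows 3 tolerant libraries together at 1045 to 1302 CPM, while tolerant points of Igkv4-80, from 4.07 to 195 CPM, are far apart.

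B cell genes were slightly higher in tolerant libraries without any gene passing the test. All 15 genes of the list had a positive log2 fold change, with a median of 0.40 against 0 over all genes tested. Without 1 library 5 of them, Cd22, Blk, Fcer2a, Vpreb3 and Ralgps2, turned slightly negative (lowest value -0.16, for Fcer2a). The groups did not overlap for 7 of the 15, where 3.75% of all genes tested did not overlap in that direction, and 6.86% of the 6954 genes with a mean of at least 20 CPM. The summed level was 9605, 6114 and 8276 CPM in naive and 11377, 12203 and 10017 in tolerant libraries, 1.40-fold higher in the latter and without overlap. Ms4a1, which encodes CD20, was 906, 878 and 1211 CPM in naive and 1628, 1772 and 1462 in tolerant libraries (log2 fold change 0.70, SE 0.652). Fcmr, the Fc receptor of IgM, was 133, 163 and 227 against 498, 287 and 350 CPM. Cr2, which encodes the complement receptor CD21, was 1165, 533 and 814 against 1608, 1486 and 1251 CPM. Those 3 genes separated the groups.

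Among B cell subsets, the 6 marginal zone genes had a median log2 fold change of 0.66 and a summed level 1.67-fold higher in tolerant libraries, to which Cr2, also in the B cell list, contributed most. S1pr3, the sphingosine phosphate receptor of marginal zone B cells, was 1.53, 9.78 and 0.966 CPM in naive and 15.2, 33.5 and 15.6 in tolerant libraries, without overlap. Cd1d1 and Dtx1, a lipid-presenting molecule and a Notch regulator, overlapped. The 8 germinal centre genes showed no common direction, with 5 lower and 3 higher and a median of -0.25. For plasma cells, 7 of 8 genes were higher, with a median of 0.71, but the libraries of either group were far apart. Jchain, which joins IgM and IgA polymers, was 43.4, 735 and 1021 CPM in naive and 57.5, 921 and 2640 in tolerant libraries. Xbp1, a factor of secretory cells, separated the groups at 23.5, 24.5 and 46.4 against 62.4, 67.9 and 134 CPM (log2 fold change 1.48, SE 0.933, edgeR adjusted p = 1). Sdc1, a surface marker of plasma cells, had 28 counts in the naive and 0 in the tolerant group.

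Immunoglobulin genes took 1.39%, 1.39% and 1.84% of all counts in naive libraries and 2.06%, 2.50% and 2.74% in tolerant libraries, without overlap. Of the 12 constant region genes, 10 were higher and 2 lower, with a median log2 fold change of 0.57. None of the 12 was called with all libraries, and the 6-library fit called Ighg2c. With all libraries, 2 of the 12 were higher at an unadjusted p under 0.05 in edgeR, as were 517 of all 25347 genes. Ighm, the IgM heavy chain, was 2478, 2942 and 1989 CPM in naive and 4289, 4089 and 5663 in tolerant libraries (log2 fold change 0.92, SE 0.284, edgeR adjusted p = 0.747). Ighd, the IgD heavy chain of mature naive B cells, was 2857, 2688 and 2030 against 3369, 3543 and 3562 CPM. Both separated the groups, whereas Igkc overlapped at 2576, 2983 and 5885 against 4295, 6609 and 7560 CPM. The groups did not overlap for 3 of the 12, where 3.75% of all genes tested did not overlap in that direction. Switched isotypes were low. Ighg1 was at most 2.04 CPM in tolerant libraries and 23.8 CPM in naive replicate 3, and Ighg2b, at 5.15 to 73.0 CPM, overlapped. Variable segments varied by library, since the kappa segments summed to 1048, 403 and 2988 CPM in naive and 1512, 2897 and 1712 in tolerant libraries. In naive replicate 2 a single segment, Igkv6-15, held 58.1% of these.

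T cell genes were lower in tolerant libraries. Of the 18 genes of the list, 17 had a negative log2 fold change, with a median of -0.88, and 1 was called, Cd28, against 0.0355% of all genes tested that were called lower. The groups did not overlap for 10 of the 18, where 3.04% of all genes tested did not overlap in that direction, and 4.57% of those with a mean of at least 20 CPM. Their summed level was 4253, 4640 and 5367 CPM in naive and 2805, 2527 and 2385 in tolerant libraries, 1.85-fold higher in naive ones. Lck, the kinase that starts T cell receptor signalling, was 971, 725 and 629 against 443, 495 and 348 CPM (log2 fold change -0.85, SE 0.262, edgeR adjusted p = 0.747). Trbc1, a constant region of the receptor's beta chain, was 503, 581 and 603 against 327, 349 and 286 CPM. Both genes kept the groups apart, and so did Cd3e, a CD3 chain, at 132, 132 and 185 against 81.5, 77.0 and 84.5 CPM. Cd3d overlapped, at 320, 195 and 964 against 240, 281 and 160 CPM, with a log2 fold change of -1.12 (edgeR adjusted p = 0.224) that was called in 3 of 6 fits without 1 library. Trac, the alpha chain constant region, was the exception with a log2 fold change of 0.14 and 65.7, 186 and 162 against 177, 143 and 135 CPM. T cell receptor genes as a whole took 0.179%, 0.206% and 0.203% of counts in naive and 0.136%, 0.125% and 0.102% in tolerant libraries.

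CD8 T cells showed the same pattern in 4 of 4 genes, none of which was called. Cd8a was 213, 209 and 350 CPM in naive and 177, 123 and 120 in tolerant libraries (log2 fold change -0.88, SE 1.09, edgeR adjusted p = 1). Cd8b1 was 157, 239 and 410 against 148, 102 and 116 CPM (log2 fold change -1.14, SE 0.993, edgeR adjusted p = 1). Neither gene overlapped between the groups, where 3.04% of all genes tested did not overlap in that direction, although naive replicate 1 and tolerant replicate 1 were close for Cd8b1. Dapl1, a gene of naive T cells, overlapped at 258, 129 and 377 against 110, 72.8 and 129 CPM. The list summed to 668, 591 and 1152 CPM in naive and 444, 311 and 383 in tolerant libraries, 2.12-fold higher in the naive group. In CD4+Foxp3- T cells the same genes had mean sums of 935 CPM in naive and 504 in tolerant mice. These lay above the means of 803 and 379 CPM in CD45+CD4- cells. The list thus did not set CD8 T cells apart from CD4+ T cells. Divided by the summed T cell genes of the same library, it was 0.157, 0.127 and 0.215 in naive and 0.158, 0.123 and 0.161 in tolerant libraries, with overlap. The sum of the CD4 T cell genes over that of the T cell genes did separate, at 0.0486, 0.0526 and 0.0567 against 0.0411, 0.0411 and 0.0292. CD4 over CD8 T cell genes overlapped, at 0.309, 0.413 and 0.264 against 0.259, 0.335 and 0.182. B over T cell genes gave 2.26, 1.32 and 1.54 in naive and 4.06, 4.83 and 4.2 in tolerant libraries, a 2.56-fold higher mean without overlap. Plasma cell over B cell genes and neutrophil over myeloid genes overlapped. Gamma delta T cell genes such as Trdc, at 22.3, 30.3 and 40.2 against 27.6, 36.0 and 10.9 CPM, overlapped.

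The Treg list, whose genes other T and NK cells share, had 1 of 7 genes called, Ikzf2, and 2 without overlap, Ikzf2 and Tnfrsf18, against 0.0355% and 3.04% of all genes tested in that direction. Tnfrsf18, which encodes GITR, was 26.0, 53.5 and 37.0 against 8.01, 25.8 and 18 CPM, without overlap (log2 fold change -1.17, SE 0.549, edgeR adjusted p = 1). Il2ra, the high-affinity chain of the IL-2 receptor, ranged from 0.966 to 52.8 CPM in naive libraries and from 10.9 to 13 in tolerant ones.

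**Figure D3:**
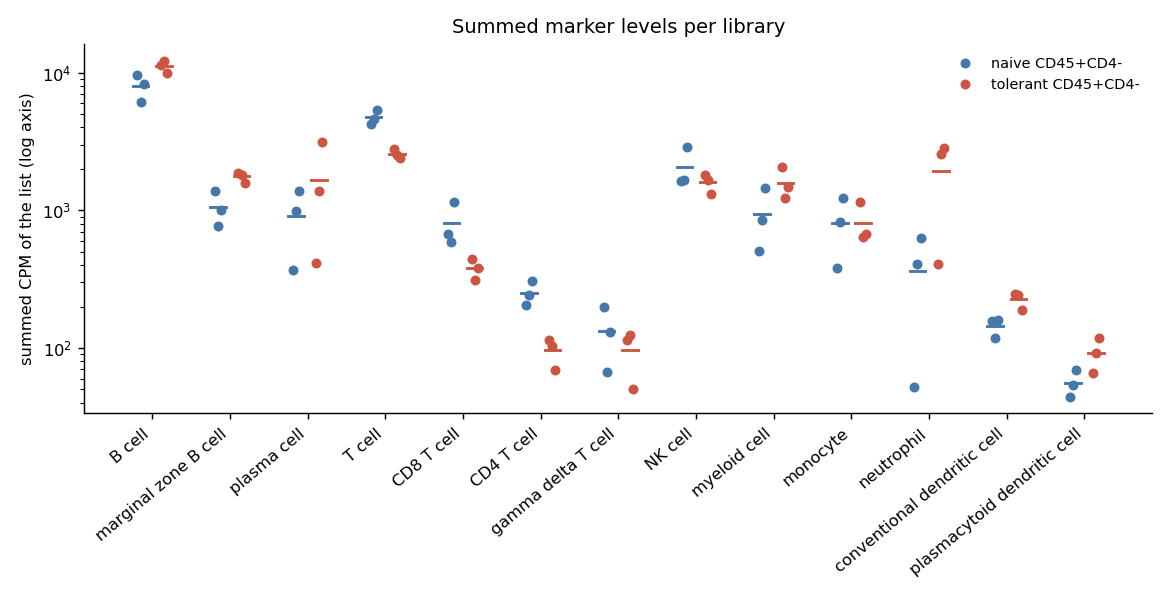
Summed CPM of the genes of 13 lineage lists on a log axis, with 1 point per library and a line at each group mean. The naive and tolerant points are apart for B cells (6114 to 9605 against 10017 to 12203 CPM), T cells (4253 to 5367 against 2385 to 2805 CPM), CD8 T cells and CD4 T cells. They are mixed for NK cells, myeloid cells, monocytes and neutrophils.

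Of 14 NK cell genes, 11 were lower and 3 higher in tolerant libraries, with a median log2 fold change of -0.39 and no call. Groups did not overlap for 2 of the 14, against 3.04% of all genes tested in that direction. These were Klra8, the activating receptor Ly49H, at 108, 67.2 and 164 against 58.0, 63.5 and 56.0 CPM, and Il2rb, the IL-2 receptor beta chain, at 111, 227 and 110 against 70.7, 109 and 97.4 CPM. Ncr1, the natural cytotoxicity receptor NKp46, was 40.9, 23.8 and 50.9 against 62.2, 43.7 and 11.5 CPM. Klrb1c, which encodes NK1.1, was 57.7, 18.3 and 41.2 against 34.0, 36.8 and 59.7 CPM. Both of these overlapped, as did Gzma, at 126, 364 and 331 against 393, 104 and 177 CPM. The list summed to 1632, 1655 and 2899 CPM in naive and 1813, 1665 and 1321 in tolerant libraries, and naive replicate 3 made most of the difference. NK over T cell genes was 0.384, 0.357 and 0.540 in naive and 0.646, 0.659 and 0.554 in tolerant libraries, without overlap.

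Myeloid genes leaned towards the tolerant libraries, again without a call. Of 12 genes, 9 were higher and 3 lower, with a median log2 fold change of 0.68, and 4 did not overlap, where 3.75% of all genes tested did not overlap in that direction. Lyz2 was 90.7, 238 and 400 CPM in naive and 826, 264 and 316 in tolerant libraries (log2 fold change 0.95, SE 0.743, edgeR adjusted p = 1), with overlap. Csf1r, the growth factor receptor of monocytes and macrophages, was 1.83, 12.1 and 10.3 against 33.1, 27.5 and 47.2 CPM. Fcer1g, the Fc receptor gamma chain that NK cells share, was 64.2, 75.3 and 220 against 230, 232 and 239 CPM. Cst3, a protease inhibitor high in dendritic cells, was 160, 173 and 285 against 459, 372 and 439 CPM (log2 fold change 1.04, SE 0.513, edgeR adjusted p = 1). These 3 and Fcgr3 were the genes whose groups did not overlap.

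Among the myeloid subsets, monocyte genes had the same summed level in both groups, 812 ± 425 and 815 ± 282 CPM (SD, n = 3), and Ly6c2, a marker of classical monocytes that some lymphocytes carry, overlapped at 247, 386 and 906 against 629, 378 and 369 CPM. Monocyte over myeloid genes was 0.755, 0.963 and 0.844 in naive and 0.551, 0.518 and 0.453 in tolerant libraries, without overlap. All 12 neutrophil genes had a positive log2 fold change, with a median of 2.87, and 6 had an unadjusted p under 0.05 in edgeR, as did 517 of all 25347 genes in that direction. None was called in the fit of all libraries or in that of the 6 libraries, and only Lcn2 kept the groups apart, against 3.75% of all genes tested. In the 6 libraries, S100a8 and S100a9 were called under some alternatives, among them the genes kept in all 33 libraries and the replicate block. Without 1 library the change turned negative for 5 of them, for Ly6g (-2.59) and Ngp (-4.21) without tolerant replicate 2, for Ltf (-0.92) and Mmp8 (-0.57) without tolerant replicate 1, and for Retnlg (-0.98) without tolerant replicate 3. S100a8, an abundant calcium-binding protein of neutrophils, was 22.6, 182 and 396 CPM in naive and 243, 1734 and 1632 in tolerant libraries. S100a9, its partner, was 11.9, 214 and 159 against 74.6, 670 and 1036 CPM. Both overlapped because tolerant replicate 1 lay within the naive range, and the granule gene Camp was found only in tolerant replicate 2, with all 201 counts. The median changes of genes at 0 to 3 counts in a group, such as Camp, Ly6g and Lcn2, depend on the prior count.

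Dendritic cell genes were led by Clec9a and Xcr1. Of 9 genes, 7 were higher, with a median log2 fold change of 1.91, and 4 did not overlap, against 3.75% of all genes tested in that direction. Flt3, the receptor that dendritic cells depend on, was 2.14, 10.8 and 9.66 against 37.0, 19.2 and 29.5 CPM, and Batf3, a factor of cross-presenting dendritic cells, was 0.917, 1.30 and 0 against 8.01, 2.47 and 2.38 CPM. Itgax, which encodes CD11c, overlapped at 92.0, 36.2 and 56.7 against 59.9, 49.2 and 58.0 CPM, and so did Zbtb46, a factor of conventional dendritic cells. Cd209a, a lectin of another dendritic cell type, was 6.42, 27.4 and 12.9 against 22.9, 37.9 and 19.7 CPM. Siglech, a receptor of plasmacytoid dendritic cells, was 0.306, 0.652 and 3.54 against 4.14, 15.7 and 46.2 CPM, without overlap. Red pulp macrophage genes were evenly split, 6 lower and 6 higher, and their median (-0.12) and summed level (1.24-fold higher in tolerant libraries) differed in sign. Basophil and mast cell genes summed to at most 16.1 CPM in naive and 70.6 in tolerant libraries, with 6 of 7 higher and none called. Of these, 3 were higher at an unadjusted p under 0.05 in edgeR, as were 517 of all 25347 genes. Mcpt8, a protease of basophils, had 1 count in the naive group and 90 in tolerant replicate 3 alone. Eosinophil genes summed to at most 6.87 CPM in any library, platelet genes to 14 CPM and stromal and endothelial genes to 13.9 CPM, with no call in these lists. Haemoglobin genes showed red cell RNA in some libraries only, with Hbb-bs at 0, 0 and 3.22 against 70.2, 0 and 102 CPM, and none of the 7 erythroid genes tested was called.

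**Figure D4:**
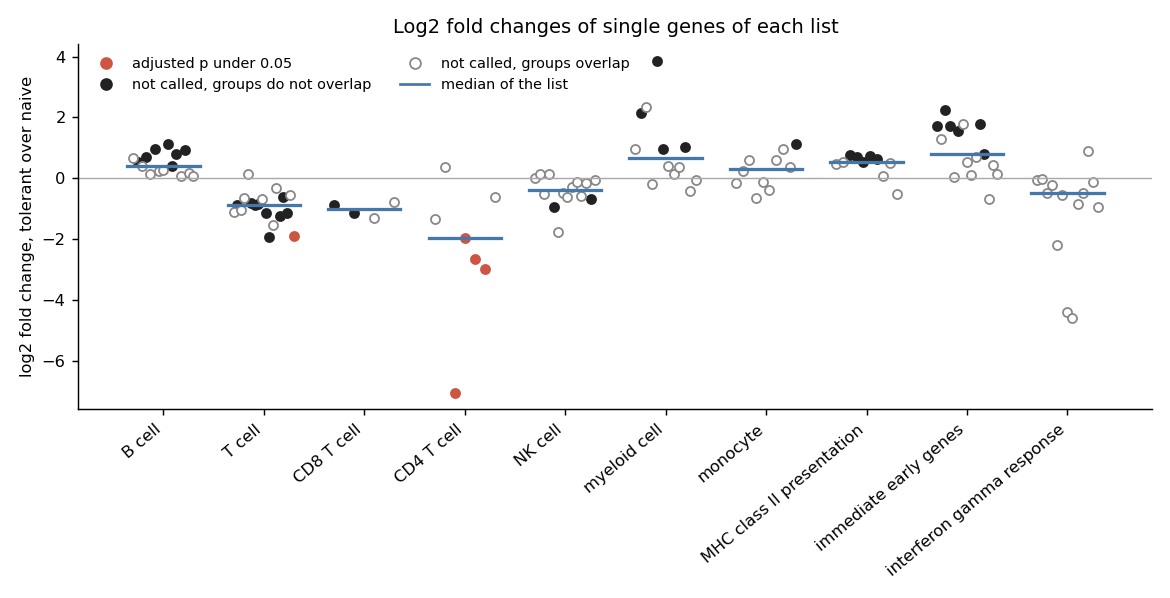
Log2 fold changes (tolerant over naive, all 33 libraries in the fit) of single genes in 10 lists, with the median of each list as a line. Filled black points are genes whose 3 naive and 3 tolerant libraries did not overlap, and red points passed the test. Only the T cell list (1 gene) and the CD4 T cell list (4 genes) of those shown hold red points, and all B cell genes lie above 0.

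The pathways that the treatment blocks were examined next. Of 8 genes of the CD28-B7 and CD40-CD154 pathways, 3 fell, the receptors and ligand Cd28, Icos and Cd40lg on the T cell side, against 0.0355% of all genes tested. The genes of the antigen-presenting side were not called. Cd40 was 99.3, 94.6 and 95.9 CPM in naive and 183, 157 and 105 in tolerant libraries, and Icosl, the ligand of ICOS, was 69.4, 46.0 and 37.7 against 77.3, 110 and 78.4 CPM, both without overlap, as were 3.75% of all genes tested in that direction. Cd86 overlapped at 70.3, 68.5 and 50.5 against 67.7, 83.5 and 61.8 CPM, and Cd80 was at most 18.4 CPM. The median of the 8 genes was 0.25, while their summed level was 1.32-fold higher in naive libraries, so that both measures differed in sign. Ctla4 was 0.611, 21.5 and 6.76 against 17.4, 23.1 and 0 CPM. Target genes of CD40 and NF-kB showed no common direction, with 8 of 13 lower, 0 called and a median of -0.16, whereas their summed level was 1.10-fold higher in tolerant libraries. Traf1, Nfkb2 and Relb all overlapped.

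Of the TNF family of costimulation, 7 of 8 genes were tested and 1 was called, Tnfrsf4. The median log2 fold change was -1.13, and 3 genes did not overlap, Tnfrsf4, Tnfrsf18 and Cd27, against 3.04% of all genes tested in that direction and 0.0355% called lower. Cd27, a receptor of T, B and NK cells, was 282, 149 and 189 against 112, 73.9 and 99.4 CPM (log2 fold change -1.12, SE 0.405, edgeR adjusted p = 0.747). Tnfrsf9, which encodes 4-1BB, overlapped at 2.44, 14.3 and 30.3 against 7.73, 9.07 and 0 CPM. Among coinhibitory genes, 7 of 11 were higher and none was called, with a median of 0.24 and 0 genes at an unadjusted p under 0.05. Cd274, which encodes PD-L1, was 36.7, 39.1 and 41.5 in naive and 79.3, 96.5 and 73.0 CPM in tolerant libraries, a clear gap between groups (log2 fold change 1.08, SE 0.889, edgeR adjusted p = 1). Havcr2, which encodes TIM-3, also kept the groups apart, with 3 counts in the naive and 57 in the tolerant group. These were the 2 of the 11 without overlap, where 3.75% of all genes tested did not overlap in that direction. Pdcd1, which encodes PD-1, had 12 counts in the naive group and 1 in the tolerant group, and Lag3 7 and 9. Btla, an inhibitory receptor high on B cells, overlapped at 796, 542 and 577 against 850, 741 and 676 CPM.

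Regulatory mediators overlapped between the groups, apart from Fgl2, and several were low. Of 12 genes none was called, with a median of 0.22, and 1 had an unadjusted p under 0.05. Il10 had 1 count in the naive and 0 in the tolerant group, and Ido1 had 1 and 40. Tgfb1 was 14.7, 11.7 and 13.2 against 20.4, 17.6 and 13.2 CPM, and Ebi3, a subunit of IL-27 and IL-35, was at most 3.36 CPM. Only Fgl2, a secreted fibrinogen-like protein, kept the groups apart, at 35.4, 16 and 34.4 against 53.6, 40.7 and 57.4 CPM, where 3.75% of all genes tested did not overlap in that direction. For inflammatory cytokines, 8 of 14 genes were higher and none was called, with a median of 0.31 and a summed level 1.25-fold higher in naive libraries, which differ in sign since Ccl5 reached 1484 CPM in naive replicate 3. Il1b was 2.75, 9.13 and 20.3 in naive and 35.4, 64.6 and 124 CPM in tolerant libraries, without overlap (log2 fold change 2.79, SE 1.75, edgeR adjusted p = 1). It was the only gene of the list without overlap, where 3.75% of all genes tested did not overlap in that direction. Il4 went the other way, with 40 counts in the naive and 1 in the tolerant group, but its groups overlapped. Ifng and Tnf overlapped, and Il6 had 1 count in either group.

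Of 10 MHC class II genes, 9 were higher and 5 did not overlap, where 3.75% of all genes tested did not overlap in that direction. Their median log2 fold change was 0.55, none was called, and their summed level overlapped at 5993, 5617 and 9113 against 10930, 11328 and 7755 CPM. H2-Ab1, a class II beta chain, was 863, 1040 and 834 against 1829, 1542 and 1298 CPM, whereas Cd74, the invariant chain, overlapped at 1916, 1299 and 4355 against 3875, 4343 and 2200 CPM. Ciita, which switches the class II genes on, was the gene that was lower, at 260, 291 and 162 against 203, 123 and 168 CPM. Of 10 MHC class I genes, 6 were lower and 4 higher, with a median of -0.24, and H2-K1, a class I heavy chain, was 4763, 3517 and 2920 against 2986, 2614 and 2836 CPM, with overlap.

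Interferon-induced genes varied between libraries. Of 15 type I interferon genes, 12 were higher, with a median of 0.24 and no call, and 3 did not overlap, against 3.75% of all genes tested in that direction. Ifit2 was 4.28, 8.15 and 8.05 against 19.1, 19.8 and 18.7 CPM, and Ifit1 was 12.8, 8.80 and 45.1 against 31.2, 0.275 and 0 CPM. The 13 interferon gamma genes leaned the other way, with 12 lower and a median of -0.48, yet none was called and each overlapped between the groups.

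Immediate early genes, which stimulation and tissue handling both switch on, were higher in 14 of 15 cases, with a median log2 fold change of 0.81. None was called, 1 had an unadjusted p under 0.05 and 6 did not overlap, where 3.75% of all genes tested did not overlap in that direction. Jun was 9.17, 12.1 and 5.80 in naive and 30.9, 35.7 and 62.8 CPM in tolerant libraries, and Fos was 83.4, 38.5 and 0.644 against 132, 148 and 123 CPM. Junb was 31.8, 90.3 and 40.6 against 156, 116 and 266 CPM (log2 fold change 1.73, SE 0.861, edgeR adjusted p = 1). The list summed to 790, 1023 and 628 in naive and 1354, 1231 and 1565 CPM in tolerant libraries. The part of tissue handling in this was not tested. Of 17 cell cycle genes 11 were higher and none was called, with a median of 0.21, and Mki67 overlapped at 12.2, 46.6 and 43.5 against 35.4, 77.0 and 26.5 CPM. Homing receptors were split 5 to 5, and their median (0.12) and summed level (1.05-fold higher in naive libraries) differed in sign.

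Of all genes tested, 52 had a mean of at least 20 CPM, an unadjusted p under 0.05 and groups without overlap, 19 of them higher and 33 lower in tolerant libraries, and 16 of the 52 were in the lists. The 5 largest increases among them were in Igkv4-80, Igkv4-59, Plk2, Ighg2c and Naip5. Plk2, a stress-induced kinase, was 4.28, 0.326 and 0.644 in naive and 20.7, 41.2 and 58.7 CPM in tolerant libraries (log2 fold change 4.49, SE 2.07, edgeR adjusted p = 1). Naip5, which senses bacterial flagellin in myeloid cells, was 10.7, 14.3 and 16.7 against 101, 62.9 and 38 CPM (log2 fold change 2.27, SE 1.10, edgeR adjusted p = 1). The 5 largest decreases among the 52 were in Ifih1, Camk4, Dtx3, Icos and Cd5. Camk4, a calcium-dependent kinase of T cells, was 59.6, 96.2 and 35.1 against 11.9, 5.22 and 9.50 CPM and just missed the threshold (log2 fold change -2.84, SE 0.658, edgeR adjusted p = 0.0527). Ifih1, the RNA sensor MDA5, was 9.17, 39.5 and 77.6 against 2.49, 9.07 and 5.77 CPM, so that its groups nearly touched. Cd5, a brake on T cell receptor signalling, was 115, 172 and 71.5 against 36.2, 20.6 and 37.3 CPM, and Dtx3, a ubiquitin ligase, was 99.6, 32.3 and 83.7 against 12.2, 17.9 and 24.4 CPM.

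To ask where CD45+CD4- cells differed from CD4+Foxp3- T cells, the change between tolerant and naive mice was compared between both splenic subsets, which share no library. Both naive subsets came from the same mice, but the contrast treated all libraries as independent. The difference was called for 12 of 25347 genes (0.0473%), 6 in each direction. Cd40lg, Tnfrsf4, Izumo1r and Maf had a lower log2 fold change in CD45+CD4- cells. In CD4+Foxp3- T cells, Cd40lg was 427, 297 and 443 CPM in naive mice against 482, 312 and 354 CPM in tolerant ones, with overlap. The difference of the log2 fold changes was -7.02 for Cd40lg, -3.24 for Tnfrsf4, -3.80 for Izumo1r and -2.73 for Maf (edgeR adjusted p = 0.00024, 0.000983, 0.000983 and 0.0315). Tnfrsf4 was 130 to 190 CPM in naive and 191 to 316 CPM in tolerant CD4+Foxp3- T cells, the opposite direction to CD45+CD4- cells.

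In CD4+Foxp3- T cells, Il2ra was 1.31, 0.317 and 0.392 CPM in naive and 18.9, 23.7 and 16.2 in tolerant libraries. In CD45+CD4- cells the groups overlapped, and the difference was -5.52 (edgeR adjusted p = 9.04e-06). Penk, the precursor of enkephalins, was 0, 0 and 0 CPM in naive and 12.5, 20.7 and 0.773 in tolerant CD4+Foxp3- T cells and at most 2.93 CPM in CD45+CD4- cells. The 6 genes called in the other direction had their signal in 1 or 2 naive CD4+Foxp3- libraries. The B cell genes Ms4a1, Ebf1 and Iglc1 were 35.4, 0.317 and 0.392 CPM, 13.1, 45.6 and 0 CPM, and 0, 33.6 and 0 CPM in those 3 libraries, and 1.5 CPM or less in tolerant CD4+Foxp3- T cells. Hbb-bs, a haemoglobin chain, was 177, 0 and 0 CPM and Gzma 0, 0 and 65.8 CPM in naive CD4+Foxp3- T cells, and both were 0 in all tolerant ones. Without naive CD4+Foxp3- replicate 1 the difference for Ms4a1 turned from 4.83 to -0.11, and without replicate 3 that for Gzma turned from 8.71 to -0.28. Without naive CD45+CD4- replicate 2 the differences for Il2ra, Penk, Izumo1r and Maf were -3.43, -8.57, -2.64 and -1.68, and were no longer called. Of the 12 fits without 1 library, 7 called the difference for Maf, 6 that for Gzma and 5 that for Hbb-bt. That for Maf was also lost without tolerant CD45+CD4- replicate 1 or 2, naive CD4+Foxp3- replicate 2 or tolerant CD4+Foxp3- replicate 2, and it ran from -3.73 to -1.68 over the 12. Without any 1 tolerant CD4+Foxp3- library, or without naive CD45+CD4- replicate 2 or tolerant CD45+CD4- replicate 1, neither Gzma nor Hbb-bt was called, and Hbb-bt was not called without naive CD45+CD4- replicate 3 or naive CD4+Foxp3- replicate 1 either.

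**Figure D5:**
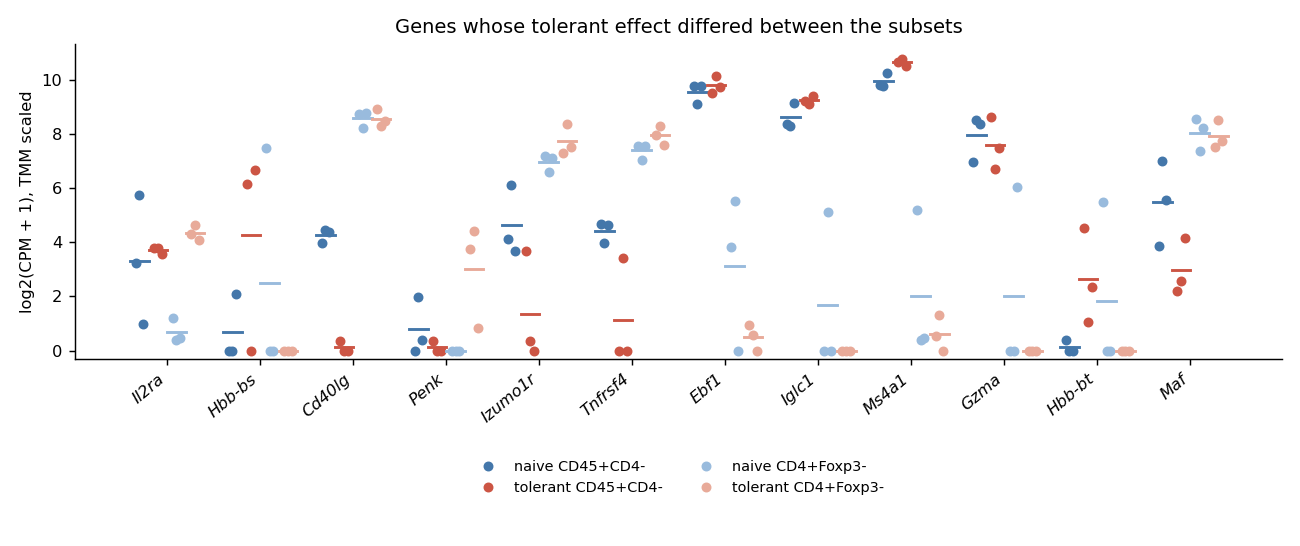
Levels of the 12 genes whose change between tolerant and naive mice differed between CD45+CD4- cells and CD4+Foxp3- T cells, as log2(CPM + 1), with 1 point per library and a line at the mean of each group of 3. Il2ra is near 0 in naive CD4+Foxp3- libraries and 16.2 to 23.7 CPM in tolerant ones, and Hbb-bs has 1 high naive CD4+Foxp3- library at 177 CPM.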

How the data were processed

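The authors made the libraries with SMART-Seq v4 and Nextera XT, used Trim Galore for trimming and STAR for alignment to mm10, to which the EGFP sequence had been joined, and deposited read counts per gene for each library. The deposited counts of both strands (column 2 of STAR's gene table) were used as they stand, since the kit does not mark strand, so reads of overlapping or antisense genes cannot be told apart. The 4 totals rows were left out, of which reads on no feature made 32.0% to 38.3% of each of the 6 libraries. Multimapping reads, 7.31% to 10.5%, are not in these counts, which can lower genes with near-identical copies such as immunoglobulin segments. Coordinates and exon lengths are those of GENCODE vM21 on GRCm38.

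Genes reaching 1 CPM in any of the 33 libraries of 11 groups were fitted with 1 mean per group in edgeR 4.0.16 (R 4.3.3), with TMM factors and the quasi-likelihood test, and p-values were adjusted by Benjamini-Hochberg over all genes tested. A gene was called at an adjusted p under 0.05. No gene was tested on its own, since an exact permutation test of 3 against 3 libraries cannot go below p = 0.1. A second fit took only the 6 compared libraries, and a further contrast set the change in CD45+CD4- cells against that in CD4+Foxp3- T cells. Alternatives were the likelihood ratio test, DESeq2 1.42.0, RLE size factors, no filter, at least 10 counts in at least 3 libraries, other sets of libraries, the replicate number as a block, ComBat-Seq (sva 3.50.0) with the sequencer as batch, and leaving out each library. Those of the 6-library fit were added after seeing the data. Intervals of count ratios and counts of 0 cover counting error only, at 95%.

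On simulated counts with 100 genes changed 4-fold and 100 changed 16-fold, the comparison of CD45+CD4- cells recovered 3 and 56 with all libraries (23131 genes, 0 false calls) and 10 and 60 with the 6 libraries (15437 genes, 15 false calls). The genes named were those called in either fit, first genes of most of 21 lineage and 14 pathway lists, and, in either direction, the 5 most changed genes among those with a mean of at least 20 CPM, an unadjusted p under 0.05 and groups without overlap. Several lists, such as those of interferon gamma genes and homing receptors, are given by counts, medians or sums only. Other list genes, mainly those whose groups did not overlap, were named after their values were seen. The libraries compared and the lists were chosen with earlier results of these data known. Lists share genes, such as Cd28, Icos, Cd40lg, Tnfrsf4, Tnfrsf18 and Cr2, and their counts are not independent. Pairs of libraries of 1 group differed by 27.3 to 55.2 times the sampling noise (chi-square per degree of freedom), so that none was counted as a duplicate. Python 3.11.15 with pandas 2.3.3, numpy 2.4.6 and scipy 1.17.1 made the tables. Single-gene values of a few list members are not reported here.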

Additional observations from a re-analysis of the deposited data

Results flagged for a closer look

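The change between tolerant and naive mice differed between CD45+CD4- cells and CD4+Foxp3- T cells for 12 genes, by an interaction contrast over all 33 libraries (edgeR quasi-likelihood test, Benjamini-Hochberg). Each value is the log2 fold change in CD45+CD4- cells minus that in CD4+Foxp3- T cells. For genes of T cells it was -7.02 for Cd40lg (adjusted p = 0.00024), -3.24 for Tnfrsf4 (0.000983), -3.80 for Izumo1r (0.000983), -2.73 for Maf (0.0315), -5.52 for Il2ra (9.04e-06) and -11.05 for Penk (0.000349). Il2ra and Penk were higher in tolerant than in naive CD4+Foxp3- T cells, the groups of CD45+CD4- cells overlapped for both, and neither was called without naive CD45+CD4- replicate 2. Maf was called in 7 of the 12 fits without 1 library, Gzma in 6 and Hbb-bt in 5. For genes of other cells it was 5.47 for Ebf1 (adjusted p = 0.00159), 8.63 for Iglc1 (0.00331), 4.83 for Ms4a1 (0.0145), 8.71 for Gzma (0.0315), 16.12 for Hbb-bs (5.44e-05) and 14.37 for Hbb-bt (0.0315). In all 6 of the latter, 1 or 2 naive CD4+Foxp3- libraries held nearly all counts of that subset, and the values for genes at 0 in a whole group depend on the prior count. Without the naive CD4+Foxp3- library with the highest level, the difference was 3.91 for Ebf1, 0.59 for Iglc1, 5.65 for Hbb-bs and 5.90 for Hbb-bt, and none of these was called.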

How the results depend on the processing

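The 9 genes lower in tolerant CD45+CD4- cells kept their direction under every alternative run, but the count of calls did not hold. It was 1 with the likelihood ratio test and 1 with ComBat-Seq (Cd40lg in both), 39 with DESeq2 (4 shared), 3 with the stricter filter (2 shared), 5 with the 6 compared libraries (0 shared) and 5 with only spleen and graft libraries (3 shared). RLE size factors and no filter gave 12 and 13, both with all 9. Over the 9 alternatives that kept all 6 libraries, Cd40lg was called in 8, Cd28 in 6, Maf in 5 and Izumo1r in 4. Malat1, Tnfrsf4, Ikzf2, Ms4a4b and Icos were called in 3 each. Leaving out 1 library gave 6 (tolerant replicate 3) to 16 (naive replicate 1), and without naive replicate 2 it was 12. The cause was not tested. In the 6-library fit the 5 calls became 22 with the genes kept in all 33 libraries, 42 with DESeq2, 14 with the likelihood ratio test, 14 with a replicate block and 0 with the stricter filter in edgeR (507 at an unadjusted p under 0.05). Of the 9 genes called with all libraries, these included Cd28, Cd40lg and Maf with the genes kept in all 33, Cd28 and Cd40lg with DESeq2 and with the likelihood ratio test, and Cd28 with the block. Without 1 library it gave 2 (tolerant replicate 3) to 31 (naive replicate 3), with 8, 12 and 16 without naive replicate 1, tolerant replicate 1 and tolerant replicate 2. Of the 9, these held Cd28 and Maf without naive replicate 1 or 3, Izumo1r without tolerant replicate 1 and Tnfrsf4 without tolerant replicate 2. The 12 genes of the difference between subsets became 5 with the likelihood ratio test, 56 with DESeq2, 2 with the stricter filter, 6 with the 12 compared libraries, 3 with only spleen and graft libraries, and 10 to 24 without 1 library (24 without naive CD45+CD4- replicate 3). There the difference for Ms4a1 ran from -0.11 to 6.13 and that for Gzma from -0.28 to 9.29.

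Replicate numbers did not pair naive with tolerant CD45+CD4- libraries. Deviations from the group means correlated at -0.00699, -0.0858 and -0.0158 for the same number, and not every library correlated best with its own number. Between subsets, same-numbered naive CD45+CD4- and CD4+Foxp3- libraries correlated at 0.0300, 0.0490 and 0.0264, the highest value for each naive CD45+CD4- library. In tolerant mice these values were 0.0404, 0.0164 and -0.00149. With the replicate number as a block, 13 genes were called in CD45+CD4- cells, with all 9 among them, and 19 for the difference between subsets, 11 of the 12 among them.

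Summed levels moved less than the spread between replicates under each scaling. The log2 ratio was 0.49 for B cell genes (0.32 to 0.64 without 1 library), -1.08 for CD8 T cell genes (-1.26 to -0.73), -1.39 for CD4 T cell genes (-1.54 to -1.20), -0.37 for NK genes (-0.51 to -0.04) and 0.76 for myeloid genes (0.46 to 1.23). Of 347 other genes in the lists or named, 25 results passed the threshold under an alternative and none that was called turned its direction. In each of the 6 libraries, 3 counts were worth 0.903 to 1.18 CPM of the library total, so lower values rest on fewer counts than that.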
